A study of Mus musculus with 2 samples.

Results

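The genes described here are 35 DNA replication and S-phase genes, chosen from a list of symbols, and all 35 were found among the 31053 genes listed for mouse uterus. By role they comprise 8 licensing genes, 4 genes of helicase activation, 4 of polymerases and primase, 5 of the clamp, its loader and single-strand binding, 2 of lagging-strand joining, 5 of nucleotide supply, 4 of chromatin and S-phase order, and 3 of G1/S entry. They were measured by droplet single-cell RNA sequencing of whole uterus at gestational day 4, in 1 library from Mettl14 f/f mice (alleles flanked by recombination sites) and 1 library from Mettl14 d/d mice (deleted alleles). The METTL14 protein is part of the enzyme complex that writes N6-methyladenosine onto RNA. The recombinase driver and the number of animals behind each library are not given in the sources used here. Because each genotype is represented by 1 library, no difference could be checked against replicates, no p-value is given, and every comparison is between these libraries.

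As background, a cell licenses its replication origins in G1 by loading the MCM helicase, fires them in S phase after cyclin E and E2F activity has increased, and then copies DNA with a sliding clamp, polymerases and a supply of deoxynucleotides. Many of these genes are transcribed at the G1/S transition by E2F factors, whereas genes such as Top2a and Cenpf peak later, in G2 and mitosis, and many of those carry a CHR promoter element. In the mouse uterus of early pregnancy, luminal epithelium stops dividing before implantation while stroma and vessels divide.

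Promoter sequences were taken from the RefSeq table of GRCm38.p6, which held 29 of the 35 genes. At least 1 of the E2F letter strings TTTCGCGC, TTTGGCGC, TTCCCGCC and TTGGCGCC, read on both strands with overlapping matches allowed, lay in 13 of the 29 promoters (44.8%), against 3.60% of 27025 promoters of the same length (250 bases before to 50 after the start). The CHR letters TTTGAA lay in 3 of the 29 (10.3%), against 18.1% of all promoters. Among 21 promoters of the mitotic list, which holds 25 genes and includes Top2a and Cenpf, 2 held E2F letters and 16 (76.2%) held CHR letters. Below are the last 120 bases before the start for 4 replication genes that differed in opposite directions in stroma, and for Top2a as the mitotic comparator. Capitals mark E2F letters in the 4 replication genes and CHR letters in Top2a.
Mcm6: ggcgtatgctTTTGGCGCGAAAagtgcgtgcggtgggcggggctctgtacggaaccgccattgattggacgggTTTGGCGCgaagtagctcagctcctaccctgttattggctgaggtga
Uhrf1: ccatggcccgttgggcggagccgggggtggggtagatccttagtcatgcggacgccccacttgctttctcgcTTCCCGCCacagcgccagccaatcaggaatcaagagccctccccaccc
Pcna: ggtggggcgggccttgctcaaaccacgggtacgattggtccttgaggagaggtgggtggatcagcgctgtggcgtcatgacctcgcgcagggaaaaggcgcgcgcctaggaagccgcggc
Tk1: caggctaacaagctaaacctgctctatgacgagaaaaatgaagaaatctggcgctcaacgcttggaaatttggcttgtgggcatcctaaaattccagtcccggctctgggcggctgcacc
Top2a: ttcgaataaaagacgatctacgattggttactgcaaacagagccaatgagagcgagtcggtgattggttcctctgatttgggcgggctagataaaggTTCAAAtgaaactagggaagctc

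The Mcm6 window (chr1:128359706-128359825, minus strand) held 3 E2F matches, and the Uhrf1 window (chr17:56303217-56303336, plus strand) held 1. The Pcna window (chr2:132253181-132253300, minus strand) and the Tk1 window (chr11:117826015-117826134, minus strand) held 0. In the Top2a window (chr11:99024190-99024309, minus strand) the CHR letters began 23 bases before the start. A match is a description of letters, and its absence says only that those letters are not in the window. Grouped after the values were seen, E2F letters lay in 5 of the 8 promoters of genes lower in d/d stroma, in 0 of the 3 of genes higher there, and in 8 of the 18 of the remaining genes. The order was not the same elsewhere: in blood endothelium they lay in 4 of the 9 promoters of lower genes, 0 of the 2 of higher genes and 9 of the 14 of genes within 1.5-fold. In pericytes they lay in 5 of 11 lower and 1 of 3 within, and in epithelium in 2 of 6 higher and 4 of 7 within.

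The f/f library gave 7089 cells and the d/d library 5977 cells after filtering, with medians of 6080 and 5217 unique molecular identifiers (UMIs) per cell, and 7 kept barcodes occurred in both. Cell classes were named from marker genes, and the UMIs of each gene were added up by library and class and scaled to 1000000 UMIs of that class (CPM). Throughout, pairs of values give f/f before d/d, and log2 ratios are d/d over f/f. Compared were the 7 classes that held 100 cells or more in each library. Stroma held 4696 f/f and 1700 d/d cells, smooth muscle 492 and 1924, blood endothelium 546 and 601, pericytes 339 and 758, macrophages or monocytes 241 and 306, epithelium 176 and 149, and dendritic cells 153 and 138. Mettl14 was at 14.5 and 2.46 CPM in stroma, and at 19.6 and 4.64 CPM in epithelium, but at 19.0 and 18.6 CPM in blood endothelium. All intervals are at 95% and cover counting error only.

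The summed level of the 35 genes was lower in d/d than in f/f pericytes, dendritic cells, blood endothelium, macrophages and stroma, and higher in epithelium and smooth muscle. In stroma the sum was 756.8 and 709.8 CPM, a ratio of 0.938 (0.916 to 0.961). In pericytes it was 1172 and 716.1 CPM (ratio 0.611, 0.576 to 0.648), and in blood endothelium 1132 and 981.0 CPM (0.867, 0.833 to 0.901). These 3 classes share a direction but differ in size. Epithelium had the lowest f/f sum, 339.7 CPM, and 534.6 CPM in d/d (ratio 1.57, 1.45 to 1.71). Smooth muscle had 396.5 and 438.6 CPM (1.11, 1.03 to 1.19). The ratio was 0.860 (0.755 to 0.982) in macrophages and 0.589 (0.513 to 0.676) in dendritic cells. The macrophage ratio turned to 1.18 when libraries were scaled with edgeR's TMM factors, and the smooth muscle ratio turned to 0.986 when each library was clustered alone and to 0.842 without Pcna, Dut and Slbp.

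Within the f/f library, natural killer or innate lymphoid cells had the highest level, 3242 CPM (3144 to 3341; 222 cells), followed by T cells (1311 CPM, 60 cells), pericytes (1172 CPM) and blood endothelium (1132 CPM). The T cell name is not secure in f/f. With f/f clustered alone, a cluster of 63 cells, with Il1rl1, Trbc2 and Cd3g among its leading genes, was named mast cell. Its mean log2 marker rise was 8.11 for mast cells and 5.95 for T cells. T cells, pericytes and blood endothelium did not all separate: the interval of T cells (1140 to 1502) overlapped that of pericytes (1125 to 1221), which overlapped that of blood endothelium (1102 to 1162). Dendritic cells (845.2 CPM), stroma (756.8 CPM) and lymphatic endothelium (740.6 CPM) came next, and the interval of lymphatic endothelium (626 to 870) held the stromal value. In the d/d library the order began with blood endothelium (981.0 CPM), T cells (817.2 CPM), pericytes (716.1 CPM) and stroma (709.8 CPM), the last pair overlapping. Smooth muscle (438.6 CPM) and lymphatic endothelium (438.4 CPM) were lowest there, and epithelium, lowest in f/f, stood at 534.6 CPM.

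**Figure D1:**
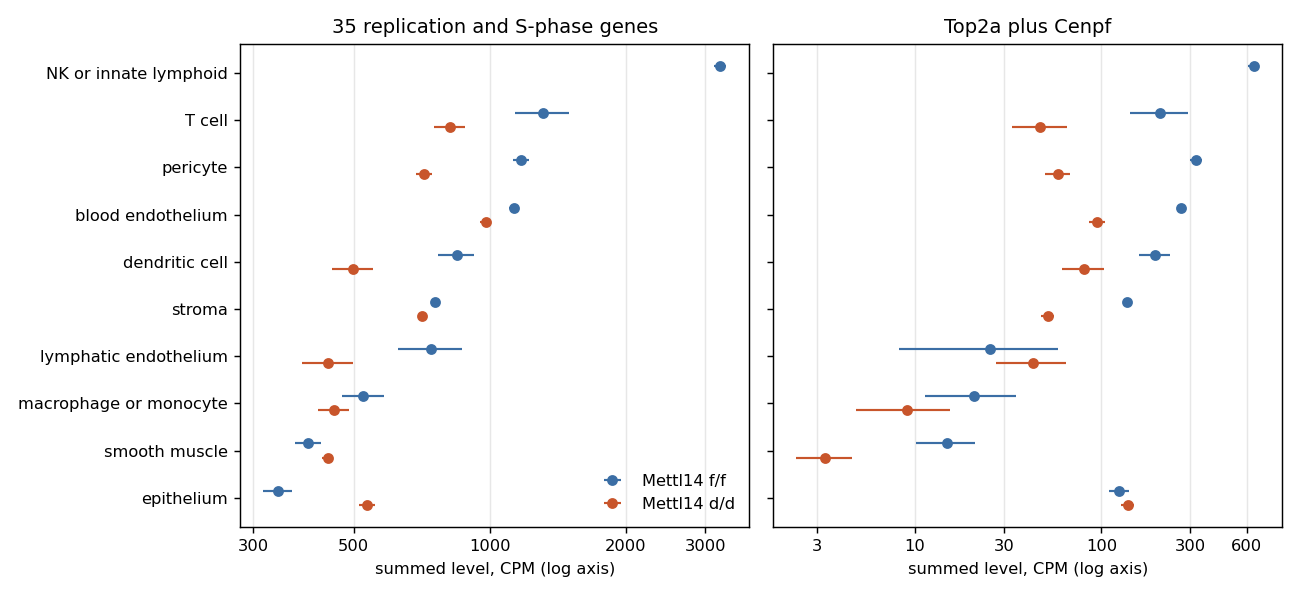
Summed level of the 35 genes (left) and of Top2a plus Cenpf (right) in CPM on log axes for each cell class, with f/f in blue and d/d in orange; points are values of 1 library and bars exact Poisson 95% intervals, and classes under 50 cells in a library are not drawn. The stromal sums of the 35 genes lie at 756.8 and 709.8 CPM, whereas those of Top2a plus Cenpf lie at 137.8 and 51.5 CPM.

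The mitotic pair differed more between libraries than the replication genes did in stroma, blood endothelium and pericytes, but less in epithelium. Top2a, which untangles replicated DNA, and Cenpf, a kinetochore protein, summed to 137.8 and 51.5 CPM in stroma, a ratio of 0.374 (0.344 to 0.406). The pair was at 267.2 and 94.9 CPM in blood endothelium (0.355, 0.318 to 0.396), and at 321.1 and 58.4 CPM in pericytes (0.182, 0.153 to 0.215). Replication genes per Top2a plus Cenpf UMI therefore went from 5.49 to 13.8 in stroma (ratio of the quotients 2.51, 2.30 to 2.73). The quotient went from 4.24 to 10.3 in blood endothelium (2.44, 2.18 to 2.74) and from 3.65 to 12.3 in pericytes (3.36, 2.81 to 4.03). In smooth muscle it went from 26.6 to 132 on sums of only 14.9 and 3.31 CPM for the pair. In epithelium the pair was at 124.5 and 138.1 CPM (1.11, 0.960 to 1.29). Its genes went opposite ways there, Top2a at 120.8 and 84.7 CPM and Cenpf at 3.65 and 53.4 CPM. The mitotic list of 25 genes had a ratio of 3.31 (2.99 to 3.68) in epithelium, above the 1.57 of the replication genes. The small difference of the pair in epithelium therefore does not hold for the mitotic list.

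Pcna and Slbp are summed here as a pair chosen after the values were seen, and they were not the highest ratios in every class. In stroma Fen1, Gins2 and Tk1 had higher ratios, in smooth muscle Rrm1 (log2 ratio 1.09) lay above Pcna (0.95), and in epithelium Slbp was at -0.21. Pcna encodes the sliding clamp and Slbp the protein that binds the histone mRNA stem-loop. Together they had 127.6 and 185.5 CPM in stroma (ratio 1.45, 1.38 to 1.53). Their ratio was 2.07 (1.78 to 2.41) in smooth muscle, 1.67 (1.53 to 1.82) in blood endothelium, 1.66 (1.30 to 2.15) in macrophages and 1.28 (1.13 to 1.45) in pericytes. The intervals in epithelium (1.14, 0.949 to 1.37) and dendritic cells (0.839, 0.630 to 1.12) included 1. The other 33 genes summed to 629.2 and 524.4 CPM in stroma, a ratio of 0.833 (0.811 to 0.857). That ratio was 0.832 in smooth muscle, 0.716 in blood endothelium, 0.618 in macrophages, 0.527 in dendritic cells and 0.474 in pericytes, against 1.71 (1.55 to 1.88) in epithelium. TMM scaling left the ratio of the 33 genes below 1 in these 6 classes, at 0.864 in stroma and 0.941 in smooth muscle. Pcna and Slbp made up 16.9% of the UMIs of the 35 genes in f/f stroma and 26.1% in d/d stroma, and 22.2% and 41.4% in smooth muscle.

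In stroma all 35 genes reached the 50 UMIs in the higher library that were set as the minimum for a comparison. At least 1.5-fold lower in d/d were 9 genes, and at least 1.5-fold higher were 4, while 22 lay between. Of the 9, 6 had at least 50 UMIs in both libraries. The other 3 (Mcm10, Cdc45 and Pole) passed only through f/f, where they were higher. All 4 higher genes passed in both libraries. The f/f class held 33588807 UMIs and the d/d class 13000199. Of the 11778 stromal genes that met the same minimum, 20.7% were lower and 14.1% higher by that rule, so that the count of 9 of 35 lower lay near the background, and the count of 4 of 35 higher did too. The median log2 ratio was -0.23 for the 35 genes and -0.16 for all genes, so the list as a whole sat close to the bulk of the transcriptome, in contrast to the mitotic list (median -1.27, 23 of 25 lower). With TMM scaling the split was 5 lower and 4 higher. The 35 genes ran from -0.83 to 0.93 on the log2 scale, and 16 had intervals below 0 and 6 above. The share of all genes by interval was not computed. The lowest mitotic genes were Cenpf (-1.97), Ccnb1 (-1.92), Kif20a (-1.78) and Cdc20 (-1.75), and the highest Birc5 (-0.05), Cdk1 (-0.11), Aurkb (-0.62) and Kif23 (-0.87).

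The licensing genes summed to 206.6 and 163.4 CPM in stroma (ratio 0.791, 0.753 to 0.830). Mcm2 to Mcm7 encode the 6 subunits of the replicative helicase, which act as a ring, yet they did not differ equally. Mcm2 had 27.7 and 17.8 CPM (929 and 232 UMIs; log2 ratio -0.63, -0.85 to -0.42). Mcm6 had 35.8 and 23.0 CPM (-0.64, -0.82 to -0.45), and Mcm3 had 22.2 and 14.2 CPM (-0.65, -0.89 to -0.42). These 3 subunits were lower in d/d, and their intervals did not reach those of Mcm4 (27.5 and 26.2 CPM; -0.07, -0.26 to 0.11) or Mcm7 (50.1 and 44.9 CPM; -0.16, -0.30 to -0.02). Mcm5 lay between at -0.24. Cdc6 (4.91 and 4.85 CPM) and Cdt1 (13.3 and 11.2 CPM), which load the helicase onto origins, had log2 ratios of -0.02 and -0.24, both with intervals that included 0.

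Of the genes that turn the loaded helicase into an active one, Mcm10 was at 3.36 and 2.23 CPM (log2 ratio -0.59, -1.23 to 0.01) and Cdc45, which travels with the helicase, at 4.64 and 2.62 CPM (-0.83, -1.41 to -0.29). Gins2, a subunit of the GINS complex, went the other way, at 8.75 and 13.9 CPM (294 and 181 UMIs; 0.67, 0.39 to 0.94), while its partner Gins1 was at -0.23 (-0.75 to 0.28). Members of the same complex thus differed, although the interval of Gins1 included 0. Among polymerases and primase, Prim1, the catalytic primase subunit, had 9.97 and 6.38 CPM (-0.64, -1.01 to -0.29) and Pole, of the leading-strand polymerase, 4.05 and 2.69 CPM (-0.59, -1.17 to -0.04). Pola1, which extends the primer, and Pold1, of the lagging-strand polymerase, had log2 ratios of -0.17 and -0.06.

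At the clamp and on the lagging strand the genes again diverged in stroma. Pcna had 63.9 and 97.8 CPM (2145 and 1272 UMIs; log2 ratio 0.62, 0.51 to 0.72). Rfc4, a subunit of the complex that loads the clamp, had 13.7 and 8.62 CPM (-0.67, -0.98 to -0.37), while Rfc2 (-0.21) and Rfc3 (0.01) of the same complex stayed within 1.5-fold. Rpa2, which coats single-stranded DNA, was at -0.28 (-0.51 to -0.06). Fen1, the nuclease that trims flaps between Okazaki fragments, had the highest stromal ratio of the 35 genes, with 9.79 and 18.7 CPM (329 and 243 UMIs; 0.93, 0.69 to 1.18). Lig1, the ligase that seals those fragments, had 24.3 and 16.5 CPM (-0.56, -0.79 to -0.34), the opposite direction.

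For nucleotide supply, Tk1, the thymidine kinase of the salvage pathway, had 11.3 and 17.7 CPM in stroma (381 and 230 UMIs; log2 ratio 0.64, 0.40 to 0.88). Dut, which removes dUTP, had 95.4 and 67.2 CPM (3205 and 874 UMIs; -0.51, -0.61 to -0.40), and Rrm1, the large subunit of ribonucleotide reductase, 42.1 and 28.7 CPM (-0.55, -0.72 to -0.39). Its small subunit Rrm2 was at 7.71 and 9.31 CPM (0.27, -0.05 to 0.59), and thymidylate synthase Tyms at 21.1 and 19.5 CPM (-0.11, -0.32 to 0.10). The salvage enzyme and the large reductase subunit therefore differed in opposite directions.

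Among genes of chromatin and S-phase order, Uhrf1, which brings the maintenance DNA methyltransferase to new DNA, had 22.4 and 13.9 CPM (log2 ratio -0.69, -0.93 to -0.45). Slbp had 63.8 and 87.6 CPM (0.46, 0.35 to 0.56), a difference under 1.5-fold with an interval above 0. Chaf1b, of the histone chaperone CAF-1, was at -0.41 (-0.95 to 0.10), and Dtl, of the ubiquitin ligase that removes Cdt1 in S phase, at 0.01 (-0.24 to 0.25). The cyclins E differed from each other: Ccne1 had 10.0 and 13.2 CPM (0.40, 0.13 to 0.67) and Ccne2 9.68 and 6.62 CPM (-0.55, -0.91 to -0.20). E2f1, a transcription factor of the G1/S transition, was at 0.11 (-0.23 to 0.44).

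**Figure D2:**
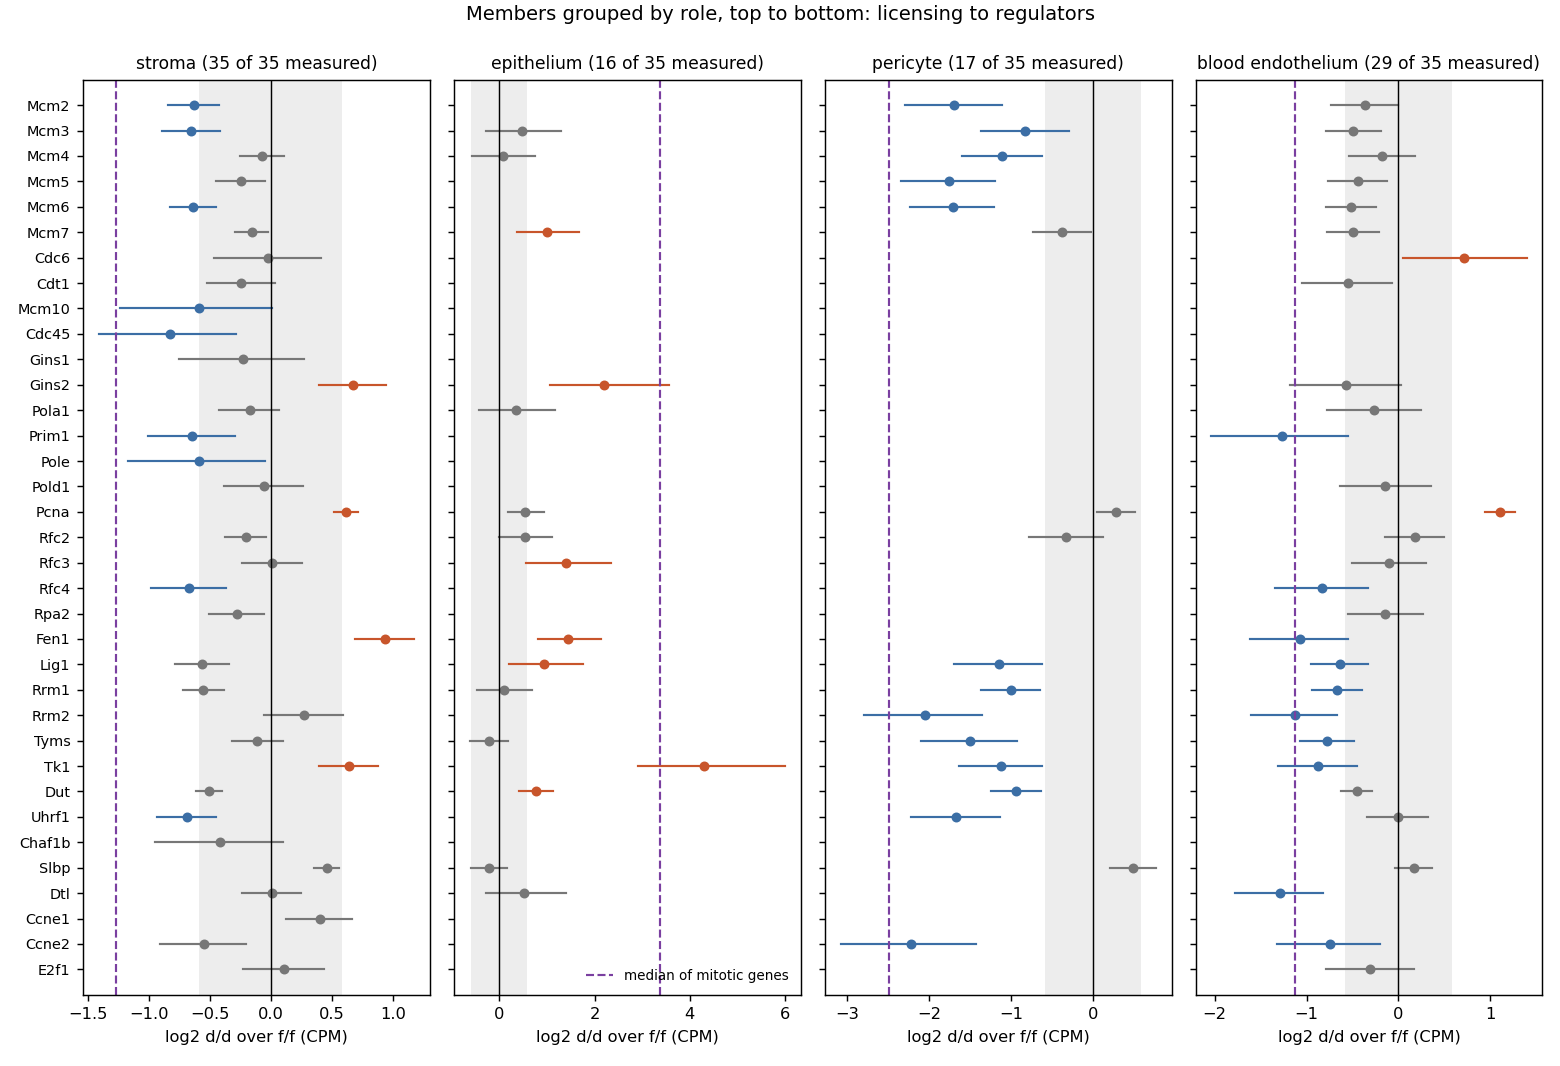
Log2 ratio of CPM, d/d over f/f, of each of the 35 genes by role in 4 cell classes, drawn where the higher library has at least 50 UMIs; bars are conditional exact 95% intervals, the grey band spans 1.5-fold, blue and orange mark genes lower and higher beyond it, and the dashed line is the median of the mitotic list. In stroma the genes run from -0.83 (Cdc45) to 0.93 (Fen1), and in pericytes Pcna and Slbp lie at 0.27 and 0.48 while 13 genes lie below the band.

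Exons of 10 of the 35 genes overlap an exon of another listed gene on the opposite strand, among them Fen1 with Tmem258, Rfc4 with Eif4a2, Gins2 with Gse1, Lig1 with Zswim9 and Tk1 with Afmid. Whether reads were assigned by strand is not given in the sources used here, so part of those counts could belong to the partner.

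To ask whether the genes were expressed together in the same cells, each cell was thinned to 2000 UMIs, and a cell with at least 3 of the 35 transcripts is called positive here; shallower cells (251 f/f and 110 d/d stromal cells) were left out. Positive cells made up 11.7% (10.8 to 12.7) of f/f and 10.0% (8.58 to 11.6) of d/d stroma, and 51.5% and 50.1% without thinning. Cells with Top2a or Cenpf made up 9.04% (8.22 to 9.93) and 3.51% (2.66 to 4.53). The share of stromal cells positive for replication genes was thus 0.852 of the f/f share, with an interval (0.721 to 1.01) that included 1, whereas the mitotic share in d/d lay below that in f/f beyond counting error. Of the Top2a- or Cenpf-bearing stromal cells, 37.2% were also positive for the replication genes in f/f, and 63.8% were in d/d.

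The share was 25.8% (21.9 to 30.0) in f/f and 17.0% (13.9 to 20.5) in d/d blood endothelium, and 57.9% and 56.2% without thinning. In pericytes it was 18.5% (14.4 to 23.3) and 8.57% (6.56 to 11.0), and in epithelium 3.14% (1.07 to 7.01) and 10.3% (5.92 to 16.5). Of f/f natural killer or innate lymphoid cells 77.5% (70.8 to 83.4) were positive. Differentiated smooth muscle served as the low reference, at 3.02% (1.62 to 5.11) in f/f and 4.08% (3.22 to 5.08) in d/d. The epithelial share of the f/f library, with a median of 9438 UMIs per cell against 4072 in f/f smooth muscle, was near that reference on average, but it rested on few cells and ran from 0.592% to 6.51% over the 20 thinning draws. In d/d epithelium the draws ran from 8.22% to 13.7%. In blood endothelium 51.1% (f/f) and 28.4% (d/d) of positive cells carried Top2a or Cenpf, as did 45.7% and 16.0% in pericytes, and 28.6% and 22.3% in stroma.

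**Figure D3:**
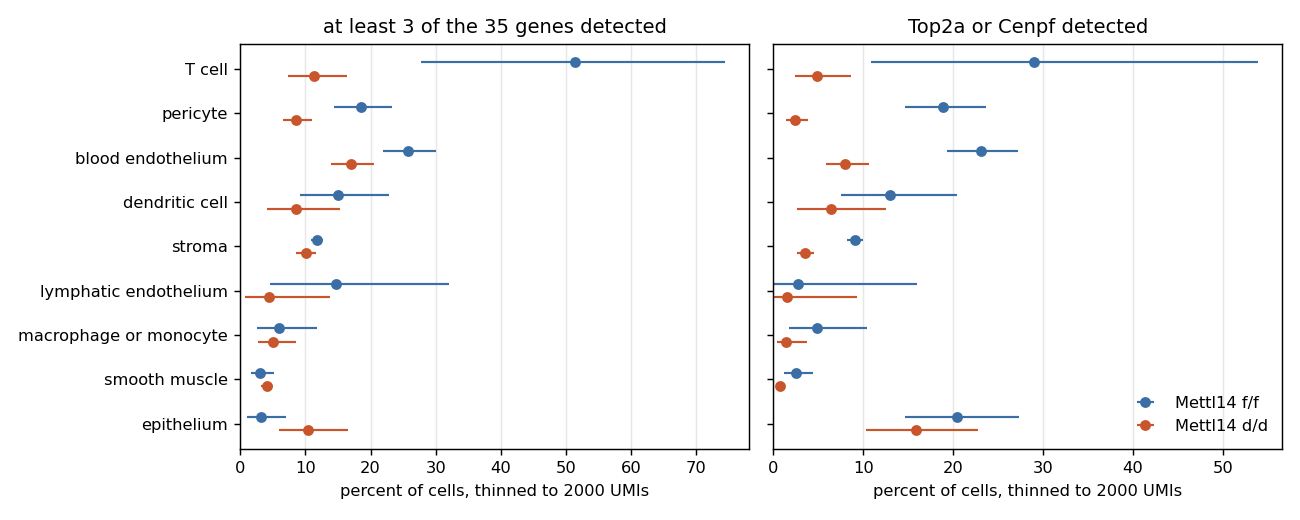
Percent of cells with at least 3 of the 35 transcripts (left) and with Top2a or Cenpf (right), by class. Each cell was thinned to 2000 UMIs. Values of f/f are in blue and of d/d in orange, with Clopper-Pearson 95% intervals of the mean count over the draws. Natural killer cells are not drawn. Stromal shares are 11.7% and 10.0% on the left and 9.04% and 3.51% on the right.

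Each gene was next compared between stromal cells with at least 3 other members of the list and the remaining cells, leaving that gene out of the choice of cells. All 35 genes were concentrated in the positive cells, in both libraries, with intervals above 1. The share of all genes with such intervals was not computed, in stroma or in the other classes, so these counts have no background. The median concentration was 5.82-fold in f/f and 6.10-fold in d/d. It ranged in f/f from 2.52-fold for Rfc2 to 28.4-fold for Cdc6, and in d/d from 1.80-fold for Slbp to 39.5-fold for Tk1. Rfc2, Slbp and Mcm7 were thus the least, and Cdc6, Mcm10, Rrm2 and Tk1 among the most, restricted to these cells. In blood endothelium 34 of the 35 genes in f/f and 33 in d/d had intervals above 1, with medians of 3.97-fold and 4.11-fold. In d/d smooth muscle 0 of 35 did, with a median of 0.905-fold, and the positive cells there held 2.03 CPM of Top2a plus Cenpf. There, 3 detected transcripts did not mark a set of cells that shared the rest of the list.

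**Figure D4:**
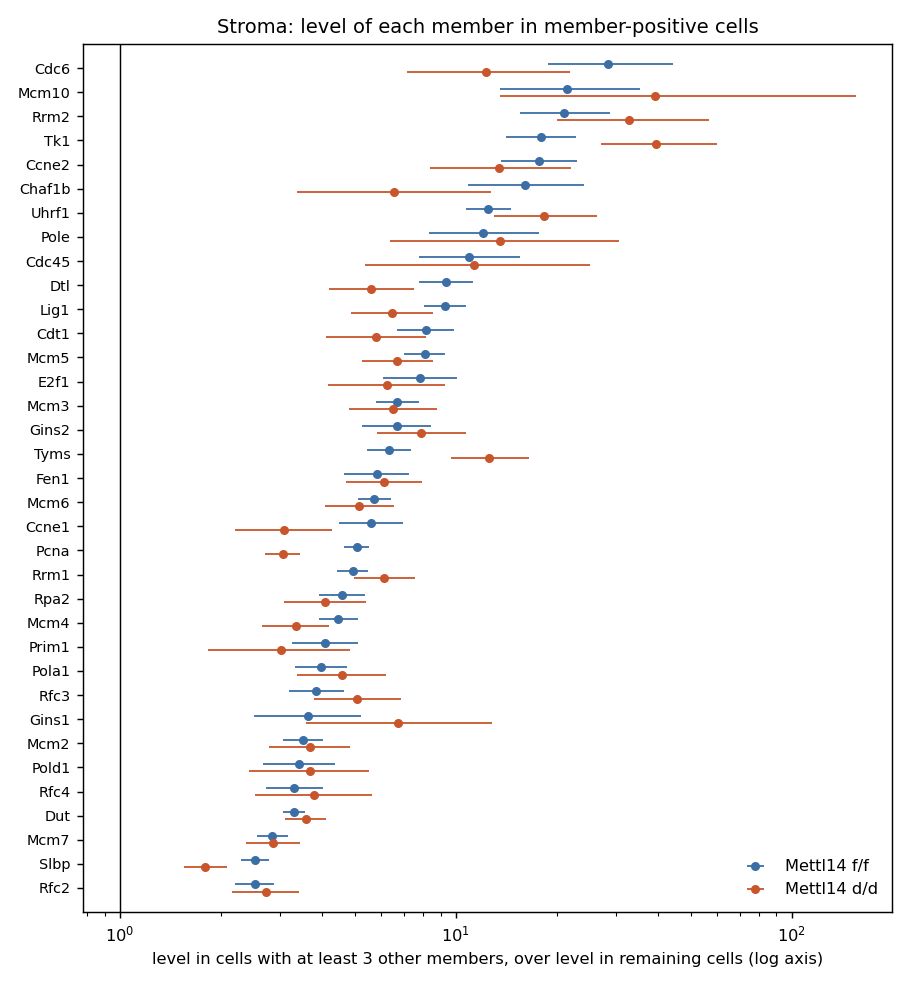
Level of each of the 35 genes in stromal cells with at least 3 other members of the list over its level in the remaining stromal cells (log axis), f/f in blue and d/d in orange, with conditional exact 95% intervals, ordered by the f/f value. All points and intervals lie above 1, from 1.80-fold (d/d Slbp) to 39.5-fold (d/d Tk1).

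Comparing the libraries separately inside and outside the positive stromal cells divided the genes into groups with different patterns. Pcna was at 210.4 and 238.7 CPM in positive cells (ratio 1.13, 1.005 to 1.28), but at 41.5 and 78.3 CPM in the remaining cells (1.89, 1.73 to 2.06). Slbp had ratios of 1.06 (0.907 to 1.24) inside and 1.49 (1.37 to 1.62) outside, and Ccne1 of 0.949 (0.688 to 1.29) and 1.73 (1.35 to 2.20). For these 3 genes the ratio was larger in the remaining cells. So it was for others, among them Cdc6 (0.835 inside and 1.93, 1.04 to 3.51, outside) and Dtl (0.815 and 1.36, 1.06 to 1.73). The remaining cells fall short of 3 detected transcripts after thinning. They still held 52.2% (f/f) and 56.3% (d/d) of the stromal UMIs of the list. Tk1 was the reverse, at 59.2 and 110.9 CPM inside (1.88, 1.56 to 2.26) and 3.30 and 2.81 CPM outside (0.849, 0.547 to 1.29). Tyms was at 1.26 (1.05 to 1.52) inside and 0.634 (0.494 to 0.806) outside. Fen1 (2.02 and 1.92) and Gins2 (1.78 and 1.503) were higher in both sets of cells, and Mcm6 (0.616 and 0.683) was lower in both.

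Over the list, 15 of 35 genes had intervals below 1 and 6 above 1 in positive stromal cells, and 10 and 7 in the remaining cells. The medians were 0.804 and 0.858. How many of all genes had intervals off 1 in either set of cells was not computed. The summed level was 2478 and 2229 CPM in positive cells and 463.2 and 466.1 CPM in the remaining ones. For these sums no gene was left out of the choice of cells, so they are set in part by that choice. They are not read against the mitotic genes, which had no part in it. Of the 25 mitotic genes, 17 were below and 2 above in positive cells, and 25 were below in the remaining cells, where the median was 0.169. Top2a had 305.0 and 220.7 CPM inside (0.724, 0.646 to 0.809) and 32.9 and 5.16 CPM outside (0.157, 0.118 to 0.205). Cdk1 and Birc5 were the 2 mitotic genes above 1 in positive cells, at 1.58 (1.30 to 1.90) and 1.88 (1.63 to 2.16). Cdkn1a, which encodes the cyclin-dependent kinase inhibitor p21, was at 13.8 and 210.1 CPM inside and 16.2 and 266.4 CPM outside; its part in these differences was not tested.

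**Figure D5:**
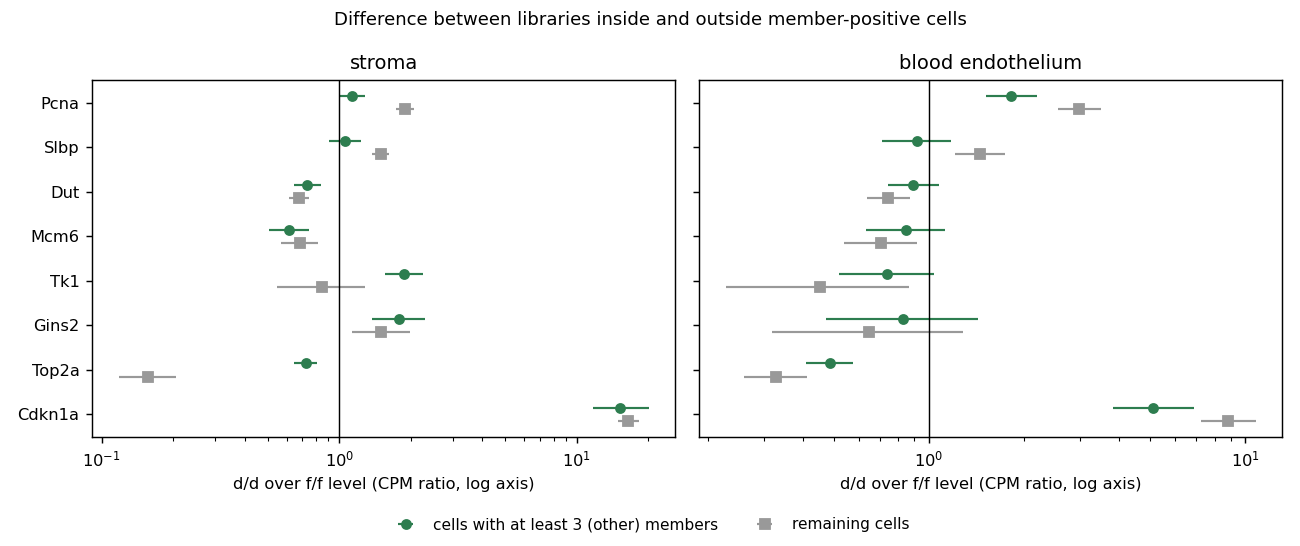
Ratio of CPM, d/d over f/f, of 8 genes in stroma and blood endothelium (log axes that differ between panels), inside cells with at least 3 other members of the list (green circles) and in the remaining cells (grey squares), with conditional exact 95% intervals. In stroma Pcna lies at 1.13 inside and 1.89 outside, Tk1 at 1.88 and 0.849, and Top2a at 0.724 and 0.157.

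The stromal clusters were largely specific to a library, so the class comparison spans different cells. Of f/f stroma, 29.8% lay in cluster 0, 27.4% in cluster 1 and 25.8% in cluster 2, whereas 67.2% of d/d stroma lay in cluster 3; their summed levels were 505.8, 534.3 and 630.3 and 622.9 CPM. Cluster 4, led by mitotic genes, held 356 f/f and 49 d/d cells with 2354 and 3058 CPM, and its Tk1 level was 84.1 and 250.9 CPM. Cluster 5, with 337 f/f and 481 d/d cells, allowed the closest match. There the sum was 512.7 and 367.2 CPM (ratio 0.716, 0.647 to 0.793), below the ratio of the whole class. Pcna had a ratio of 1.28 (0.945 to 1.74) and Slbp of 1.49 (1.14 to 1.95) in cluster 5, while Dut had 0.605 (0.417 to 0.874) and Rfc2 0.415 (0.252 to 0.669). Tk1, higher in stroma as a whole, had 7 and 2 UMIs there.

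In blood endothelium 29 of the 35 genes reached the minimum, and 6 had too few UMIs. Lower in d/d were 10 genes and higher were 2, against 12.2% and 11.3% of the 8848 genes tested. Of the 10, 7 had at least 50 UMIs in both libraries and 3 passed only through f/f, where they were higher. The median log2 ratio of the 29 was -0.49, against -0.05 for all genes, and all 25 mitotic genes were lower (median -1.12). Pcna was at 95.7 and 205.2 CPM (log2 ratio 1.10, 0.94 to 1.26), and Cdc6 at 6.60 and 10.8 CPM (0.71, 0.05 to 1.40). At least 1 Pcna UMI was found in 41.2% (f/f) and 59.2% (d/d) of cells, and its ratio was 1.82 in positive cells and 2.98 (2.55 to 3.49) in the remaining ones. The class differed in composition, since a cluster led by Dll4 and Sema3g, among others, held 1 f/f and 95 d/d cells. Its median was 2229.5 UMIs per cell.

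The lower genes of blood endothelium were led by Dtl (27.4 and 11.2 CPM; log2 ratio -1.29, -1.78 to -0.82) and Prim1 (11.8 and 4.87 CPM; -1.27, -2.04 to -0.55). The 5 genes of nucleotide supply had a summed ratio of 0.645 (0.594 to 0.700), and 4 of them were lower by the 1.5-fold rule. Rrm2 had 26.4 and 12.1 CPM (-1.13), Tk1 27.2 and 14.8 CPM (-0.88), Tyms 56.9 and 33.2 CPM (-0.78) and Rrm1 60.2 and 37.9 CPM (-0.67), while Dut, at -0.45, stayed within 1.5-fold. Both lagging-strand genes were lower, Fen1 with 97 and 45 UMIs (-1.07, -1.61 to -0.55) and Lig1 at -0.64, as were Rfc4 (-0.83) and Ccne2 (-0.75). Mcm2 to Mcm7 ran from -0.18 (Mcm4) to -0.51 (Mcm6), with intervals that overlapped. Uhrf1, lower in stroma, was at 31.3 and 31.1 CPM. Fen1 and Tk1 were higher in d/d stroma and lower in d/d blood endothelium. Cdkn1a was at 36.7 and 276.3 CPM in blood endothelium.

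In pericytes 17 of the 35 genes reached the minimum, 13 of them lower and 0 higher in d/d, against 21.4% lower and 13.4% higher among 6804 genes. Of the 13, 6 had at least 50 UMIs in both libraries (Mcm3, Mcm4, Rrm1, Tk1, Dut and Lig1), and 7 passed only through f/f, where they were higher. The count is therefore set in part by the minimum and is not read against the background. Of the 6, Lig1 had a log2 ratio of -1.16, Tk1 of -1.13, Rrm1 of -1.01 and Dut of -0.94. The genes given next, from Ccne2 to Tyms, are the 7 that passed only through f/f. Ccne2 was at 27.4 and 5.87 CPM (log2 ratio -2.22, -3.08 to -1.43), Rrm2 at 32.5 and 7.83 CPM (-2.05) and Mcm5 at 43.2 and 12.7 CPM (-1.76). Mcm2, Mcm6 and Uhrf1 followed at -1.70, -1.71 and -1.67, and Tyms at -1.51. Pcna (119.9 and 144.8 CPM; 0.27, 0.04 to 0.51) and Slbp (78.8 and 109.6 CPM; 0.48, 0.20 to 0.76) again lay on the other side of 0, with Mcm7 (-0.38) and Rfc2 (-0.34) between. The pericyte difference went with a different mix of cells. Cluster 7 accounted for 82.6% of the pericytes in f/f but 14.0% in d/d, and its summed level was 1245 CPM in f/f (1194 to 1298) and 1287 CPM in d/d (1196 to 1382). Cluster 20 held the rest, with 349.0 and 582.0 CPM. Within neither pericyte cluster was the d/d level of the 35 genes lower.

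In epithelium 16 of the 35 genes reached the minimum and 19 did not. Of the 16, 7 were higher and 0 lower in d/d, against 17.6% higher and 22.5% lower among 7105 genes. Because the d/d class held 4308153 UMIs and the f/f class 2192923, a gene could pass more easily through its d/d level, and 6 of the 7 passed only through d/d, all but Dut. The count is therefore set in part by the minimum and is not read against the background. Tk1 differed most, with 4 UMIs (1.82 CPM) in f/f and 155 UMIs (36.0 CPM) in d/d (log2 ratio 4.30, 2.92 to 6.20), and it was detected in 4 of 176 f/f cells and 39 of 149 d/d cells. Gins2 had 3.19 and 14.6 CPM (2.20, 1.07 to 3.57), Fen1 10.9 and 29.7 CPM (1.44, 0.80 to 2.13) and Rfc3 6.38 and 16.9 CPM (1.41, 0.57 to 2.35). Mcm7 was at 11.9 and 23.7 CPM (0.998), Lig1 at 8.66 and 16.7 CPM (0.95) and Dut at 40.1 and 68.5 CPM (0.77).

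Of the remaining epithelial genes, some were at similar levels in both libraries and others higher in d/d. Tyms (38.8 and 33.2 CPM; log2 ratio -0.22, -0.62 to 0.18), Slbp (43.3 and 37.4 CPM; -0.21), Mcm4 (0.07) and Rrm1 (0.10) had intervals that included 0, and Pcna had 36.5 and 53.4 CPM (0.55, 0.18 to 0.93). Mcm10 and Cdc6 had 0 UMIs in f/f, where a count of 0 allows up to 3, and 24 and 12 UMIs in d/d. Below the minimum, Uhrf1 had 3 and 27 UMIs (ratio 4.58, 1.41 to 23.6), Chaf1b 1 and 23 (11.7, 1.90 to 482), Pold1 1 and 17 (8.65, 1.36 to 362) and Ccne1 2 and 21 (5.34, 1.31 to 47.0). With a minimum of 20 UMIs 15 of the 35 genes were higher and 0 lower, and with no minimum 21 and 0. Of 15 mitotic genes measured, 14 were higher in d/d (median 3.37), Cenpf at 3.65 and 53.4 CPM and Mki67, a marker of cycling cells, at 2.74 and 39.7 CPM. Aurkb (4.75) and Cdk1 (3.97) differed most, and Cdc20 (2.16), Tpx2 (2.31) and Hmmr (2.35) least among the higher ones. Top2a was the exception, at 120.8 and 84.7 CPM. Replication genes per Top2a plus Cenpf UMI went from 2.73 to 3.87 (ratio 1.42), whereas per Cenpf UMI alone they went from 93.1 to 10.0 (0.108), and per UMI of the mitotic list from 1.76 to 0.834 (0.475).

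The libraries did not hold the same epithelium. Of the f/f cells, 73 were luminal by markers and 102 glandular, and 148 of the 149 d/d cells were neither. These names rest on the rise of markers over the other epithelial sub-clusters, so neither does not mean that the markers were absent. Cxcl15, on the glandular list, was among the leading genes of an epithelial cluster with 12 f/f and 144 d/d cells. Depth differed as well, with medians of 9438 and 16379 UMIs per cell and 14 f/f and 52 d/d cells above 30000 UMIs. Those deep cells held 73.1% of the d/d epithelial UMIs of the 35 genes and 71.7% of those of all genes; whether any of them are doublets was not tested beyond the doublet marking. Without them, a setting chosen after seeing the data, the sum was 353.0 and 508.5 CPM (ratio 1.44, 1.28 to 1.62), and Tk1 was at 1.81 and 27.1 CPM. Fen1 and Rfc3 kept ratios of 3.19 and 2.72, while the intervals of Gins2 (2.49, 0.845 to 8.21), Mcm7 (1.69, 0.963 to 2.98) and Dut (1.40, 0.985 to 1.99) then included 1. Lig1 turned to 0.640 (0.239 to 1.56). A sub-cluster of 18 d/d cells with a median of 41277 UMIs was led by Hist1h3c, Cdk1 and Tk1, among others.

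In smooth muscle 10 of the 35 genes reached the minimum, 4 of them higher and 0 lower in d/d, against 15.3% and 11.3% of 7911 genes. They were Slbp (42.4 and 93.5 CPM; log2 ratio 1.14, 0.83 to 1.47), Rrm1 (27.5 and 58.7 CPM; 1.09, 0.71 to 1.51), Pcna (45.6 and 88.3 CPM; 0.95, 0.65 to 1.27) and Rfc4 (4.19 and 7.92 CPM; 0.92, -0.07 to 2.10). The minimum of 50 UMIs hid genes that were lower, since the f/f class held 2148617 UMIs against 10859776 in d/d. Tk1 had 12 and 2 UMIs (5.58 and 0.184 CPM), Uhrf1 29 and 21 UMIs (13.5 and 1.93 CPM), and Mcm5 28 and 34 UMIs (13.0 and 3.13 CPM). Mcm6 had 18.6 and 6.08 CPM and Mcm2 11.2 and 3.22 CPM. With a minimum of 20 UMIs, 5 genes were lower and 5 higher, and with no minimum 17 were lower and 6 higher, so the count of 4 and 0 is set by the minimum and is not read against the background. Pcna was detected in 16.5% (f/f) and 34.8% (d/d) of cells, at medians of 4072 and 5331 UMIs per cell. Cluster 22, with 46 f/f and 444 d/d cells, carried pericyte markers nearly as strongly as those of smooth muscle.

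In the myeloid classes few genes could be compared. Of the 3 measured in macrophages or monocytes, Pcna was at 71.3 and 137.0 CPM (log2 ratio 0.94, 0.48 to 1.43), against 24.9% of 3123 genes higher and 21.4% lower, and Slbp (0.37) and Rfc2 (0.19) had intervals that included 0. Of the 2 measured in dendritic cells, Dut was at 94.1 and 35.6 CPM (-1.40, -2.13 to -0.70), against 21.9% of 1810 genes lower and 16.7% higher, and Pcna was at 103.2 and 84.5 CPM (-0.29, -0.83 to 0.25). Dut was thus called lower in dendritic cells, where only 2 genes could be compared, and higher in epithelium. In dendritic cells Dut passed the minimum only through f/f, and in macrophages Pcna passed only through d/d. Neither call is read against the background.

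Of 49 further replication genes, 48 were measured in stroma, 13 of them lower and 1 higher, with a median log2 ratio of -0.24 that was close to the -0.23 of the 35 genes. Among the lowest were Dna2, a nuclease-helicase (4.58 and 1.31 CPM; -1.81), Wdhd1 (-1.07) and Rnaseh2b (-1.06). The highest were Exo1, an exonuclease (2.92 and 8.46 CPM; 1.54), Dbf4, the activator of the kinase Cdc7 (0.53), Tipin (0.47) and Nasp, a histone chaperone (0.39). In blood endothelium 17 were lower and 1 higher of 43 measured. In pericytes 10 were lower and 0 higher of 20 measured, or 10 and 2 with TMM scaling. In epithelium 2 were lower and 7 higher of 25 measured (1 and 9 with TMM scaling), Hells, a chromatin remodeller, highest at 3.19 and 48.3 CPM (3.92), followed by Pclaf, which binds PCNA (2.03), Gmnn, the inhibitor of Cdt1 (1.92), and Dbf4 (1.64). Msh6, a mismatch repair gene, was lowest there (-1.10), before Rpa3 (-0.69), Orc4 (-0.40) and Pold4 (-0.33).

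Of 23 G1/S regulators all were measured in stroma, 3 of them lower and 3 higher. Ccnd1, cyclin D1, was lowest with 1243 and 117 UMIs (log2 ratio -2.04), followed by E2f8 (-1.23), Tfdp2 (-0.65) and E2f4 (-0.58). Cdkn1a was highest at 16.0 and 258.9 CPM (4.02), followed by Cdkn2c (0.97), Rb1 (0.59) and Cdkn1b (0.25). In epithelium Ccnd1 was on the other side, at 21.4 and 138.3 CPM (2.69), with Cdkn1a at 11.9 and 98.0 CPM (3.05), E2f3 at 2.40 and Myc at 1.26, while Cdkn1c was lowest (-2.94), before Rbl2 (-1.03), E2f4 (-0.84) and Ccnd2 (-0.34). Cdkn1a was higher in d/d in all 7 classes, and its relation to the levels of the 35 genes was not tested.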

How the data were processed

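Raw UMI counts per gene and barcode, not normalized per the file headers, were deposited by the authors for 1 f/f and 1 d/d library, prepared with a 3' droplet kit per the labels' protocols. Cell Ranger 3.0.1 and mm10 are named per the submitters' processing notes, whereas cellranger 6.0.1 stands in the matrix headers, which leaves the version uncertain. The strand setting is not given in the sources used here. The libraries held 8164 and 6661 barcodes with 55080123 and 44745031 UMIs. The 35 genes, the other lists and the markers were chosen with earlier results of these data known.

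Cells with at least 1000 UMIs, 500 genes and at most 20% mitochondrial UMIs were kept. Doublets were marked by Scrublet score at 0.8% per 1000 barcodes (533 and 355), because Scrublet's own threshold failed in f/f, where it marked 0. Cells were clustered jointly without integration (scanpy 1.11.5, 2000 variable genes, 30 components, 15 neighbours, Leiden resolution 1; leidenalg 0.10.2), and clusters were named from markers. Some epithelial cells that carried stromal markers (42 in f/f, 13 in d/d) were set aside. CPM is per 1000000 UMIs of a library's class. A call of lower or higher required 1.5-fold and 50 UMIs in whichever library was higher. Shares used 20 draws of 2000 UMIs per cell. Intervals are exact Poisson for sums and conditional exact for ratios of levels and of quotients. For shares they are Clopper-Pearson intervals of the mean count over the draws. For ratios of shares they are normal approximations on the log scale. Only the intervals of level ratios were tested on simulated data. TMM factors came from edgeR 4.0.16. The genes named are all 35, with values where the minimum is met, Top2a, Cenpf, Mki67, Cdkn1a and Mettl14, and of the other lists the 4 highest and 4 lowest in stroma and epithelium, of which 1 is not reported here; genes named beyond this rule were chosen after their values were seen. Alternatives covered cell filters, doublets, scaling, clustering, minima, folds, thinning and comparators.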

Additional observations from a re-analysis of the deposited data

Results flagged for a closer look

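The summed level of the 35 genes differed between libraries in opposite directions in different classes. The d/d over f/f ratio was 1.57 in epithelium and 1.11 in smooth muscle, but 0.938 in stroma, 0.867 in blood endothelium, 0.860 in macrophages or monocytes, 0.611 in pericytes and 0.589 in dendritic cells. Some of these directions turn with the processing. The smooth muscle ratio was 0.986 with libraries clustered separately and 0.842 without Pcna, Dut and Slbp, and the macrophage ratio was 1.18 with TMM scaling. Within the pericyte clusters the sum was not lower in d/d, at 1245 and 1287 CPM in cluster 7 and 349.0 and 582.0 CPM in cluster 20. With 1 library per genotype, the difference between classes was not tested for the sum or for any gene below.

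For 6 genes, calls pointed opposite ways in at least 2 classes. The share of all genes with opposite calls was not computed, so this count has no background. Some of the calls passed the count minimum only through the library with the higher level. These were Tk1, Fen1 and Lig1 in epithelium, Rfc4 in smooth muscle, Fen1 in blood endothelium and Dut in dendritic cells. Among calls that passed in both libraries, those of Tk1, Dut and Rrm1 still pointed opposite ways. The log2 ratio of Tk1 was 4.30 in epithelium and 0.64 in stroma, but -0.88 in blood endothelium and -1.13 in pericytes. Fen1 was at 1.44 in epithelium and 0.93 in stroma, but at -1.07 in blood endothelium. Lig1 was at 0.95 in epithelium, at -0.64 in blood endothelium and at -1.16 in pericytes, and without epithelial cells over 30000 UMIs its epithelial ratio turned to 0.640 (0.239 to 1.56). Dut was at 0.77 in epithelium, at -0.94 in pericytes and at -1.40 in dendritic cells. Rrm1 was at 1.09 in smooth muscle, at -0.67 in blood endothelium and at -1.01 in pericytes. Rfc4 was at 0.92 in smooth muscle, at -0.67 in stroma and at -0.83 in blood endothelium, and its smooth muscle interval included 0.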

How the results depend on the processing

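No paired analysis was possible because each genotype has 1 library. Counting error does not cover variation between animals, which cannot be told apart from genotype here. Cell classes differ in composition and depth between libraries, among them epithelium, pericytes, stroma and blood endothelium. In all comparisons, 38 of 56 alternative values for the summed level stayed within the interval of the reported one, 17 of 30 for the quotient over mitotic genes, and 32 of 40 for the ratio of shares. Of the counts among the 35 genes, 33 of 40 lower and 31 of 40 higher counts stayed within 1.5 times.

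TMM scaling moved the median log2 ratio of all genes to 0.44 in macrophages (from 0.09), 0.27 in dendritic cells (from -0.08), 0.17 in smooth muscle (from 0.03), 0.13 in epithelium (from -0.05) and 0.08 in pericytes (from -0.13). Under TMM the summed ratio was 0.972 in stroma, 0.701 in pericytes, 0.753 in dendritic cells, 1.25 in smooth muscle, 1.81 in epithelium and, reversed, 1.18 in macrophages. Leaving mitochondrial and ribosomal protein genes out of the totals moved the epithelial median to 0.14 and gave a sum ratio of 1.81 there. Without Pcna, Dut and Slbp, the 3 most abundant of the 35 genes, the ratio was 0.856 in stroma, 0.469 in pericytes, 0.714 in blood endothelium, 0.656 in macrophages and, reversed, 0.842 in smooth muscle. The smooth muscle ratio was 1.01 with at least 2000 UMIs per cell, 1.02 when clustered without cell cycle genes and, reversed, 0.986 with libraries clustered separately. With doublet-marked barcodes kept, the pericyte ratio was 0.660. Class membership changed in some settings. A cluster led by Pln and Sncg, among others, counted as smooth muscle in the reported values (46 f/f and 444 d/d cells). It was named pericyte with at least 2000 UMIs per cell (93 and 557), with doublets kept (53 and 497) and without cell cycle genes (68 and 585). Pericyte and smooth muscle values of those settings therefore rest on partly different cells. Leaving out cells over 30000 UMIs, chosen after seeing the data, gave 1.44 in epithelium and 0.804 in blood endothelium.

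Of the 35 genes, TMM gave 5 lower in stroma, 11 higher in epithelium and 1 higher in pericytes, and totals without mitochondrial and ribosomal genes gave 11 higher in epithelium. A 2-fold threshold gave 0 lower and 0 higher in stroma, 4 higher in epithelium, 2 higher in smooth muscle, and 4 lower and 1 higher in blood endothelium. A minimum of 20 UMIs gave 15 higher in epithelium, 5 lower in smooth muscle and 23 lower in pericytes, and no minimum gave 21, 17 and 27.

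Among other replication genes, TMM gave 1 lower in epithelium and 2 higher in pericytes, and 20 UMIs gave 5 lower and 15 higher in epithelium, 8 lower in smooth muscle and 25 lower in pericytes. Among mitotic genes, 20 UMIs gave 23 higher in epithelium and 1 lower in smooth muscle. Among G1/S regulators, 2 were lower in smooth muscle and 5 in pericytes; TMM gave 1 and 3, and 20 UMIs gave 4 and 8.

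The ratio of shares of positive cells was 0.463 in pericytes, 0.659 in blood endothelium, 1.35 in smooth muscle and 3.30 in epithelium. With at least 5 genes it was 46.3 in epithelium (interval 0.277 to 7738), 0.0744 in smooth muscle, 0.264 in pericytes and 0.472 in blood endothelium. With at least 2 genes it was 0.746 in pericytes and 0.859 in blood endothelium. Thinning to 1000 UMIs gave 0.304 in pericytes, and no thinning gave 0.972 in blood endothelium.

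The ratio of quotients over Top2a plus Cenpf was 4.97 in smooth muscle. With the whole mitotic list it was 2.13 in stroma, 2.25 in smooth muscle, 1.92 in blood endothelium and, reversed, 0.475 in epithelium. With Cenpf alone, added after seeing the data, it was 3.67 in stroma, 10.2 in smooth muscle and, reversed, 0.108 in epithelium. Without the 3 most abundant genes it was 2.29 in stroma, 2.58 in pericytes and 2.01 in blood endothelium. In pericytes it was 5.51 with doublet-marked barcodes kept and 4.996 with at least 2000 UMIs per cell. In both of these settings the pericyte class also held the cluster led by Pln and Sncg. Without cells over 30000 UMIs it was 1.78 in epithelium. The cause of these shifts was not tested.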

Other observations

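Top2a made up most of the UMIs of the mitotic list in f/f epithelium, 265 of 424, but not in d/d epithelium, 365 of 2760. In f/f it was at 120.8 CPM, found in 41 of 73 luminal and 45 of 102 glandular cells, beside 8 UMIs of Cenpf and 6 of Mki67. In d/d epithelium Cenpf and Mki67 had 230 and 171 UMIs. The 35 replication genes summed to 378.2 CPM in the f/f luminal cells (341.9 to 417.4) and 305.0 CPM in the glandular cells (273.9 to 338.8).

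The lymphoid classes fell outside the comparison for their cell numbers. Natural killer or innate lymphoid cells numbered 222 in f/f, with 3242 CPM of the 35 genes and 655.5 CPM of Top2a plus Cenpf, and 36 in d/d. T cells numbered 60 in f/f and 259 in d/d, with 1311 and 817.2 CPM. The f/f T cells had a median of 1577 UMIs and the d/d T cells 2686. The f/f T cells are not securely named, since a cluster of 63 cells with Trbc2 and Cd3g was named mast cell when f/f was clustered alone.

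Cluster 4, whose leading genes were mitotic, made up 7.58% (f/f) and 2.88% (d/d) of stroma. Its cells positive for at least 3 of the 35 genes after thinning made up 49.4% in f/f and 81.8% in d/d.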
